A study of Mus musculus with 18 samples.

Results

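Accessible chromatin was described at 6 genes, Retnla, Retnlb, Retnlg, Chil3, Chil4 and Alox15, out of 21938 protein-coding genes. Retnla, Chil3 and Alox15 are markers of macrophages activated by the cytokine IL-4, and they were chosen by the very value reported first, the lack of a reference peak within 1000 bp of any annotated start site. Their paralogs Retnlb, Retnlg and Chil4 were added for comparison. The catalog holds 82391 reference peaks, of which 28 lay within 100 kb of a member's most upstream start site. Of these 28, Retnla, Retnlb and Retnlg shared 7, Chil3 and Chil4 shared 1, and Alox15 had 20.

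Bone marrow-derived macrophages (BMDMs), primary cells grown from the marrow of wild type male C57/BL6 mice aged 6 to 8 weeks, were used, and accessibility was measured by ATAC-seq, in which the Tn5 transposase inserts adapters into exposed DNA. After 1 h in the vehicle DMSO, which all groups share, cells stayed untreated or were given bacterial lipopolysaccharide (LPS) or IL-4 at 10 ng/mL. Stimulation lasted 30 min, 1 h, 2 h or 4 h, so that the 18 libraries form 1 untreated, 4 LPS and 4 IL-4 groups of 2 libraries. The deposited lists of peaks, summits and extended regions pool all 18 libraries. A peak in them may therefore stem from untreated, LPS- or IL-4-treated cells, and whether any element near the 6 genes opened after IL-4 cannot be read from these values. The depth of the libraries is unknown, no error can be given for a score, and no test was made. As a check of the label, 8 of 8 macrophage marker genes, Csf1r, Spi1 and Lyz2 among them, had an accessible start site, meaning a reference peak at most 1000 bp away from it. The same held for 2 of 7 neutrophil markers, Retnlg being 1 of the 7, 0 of 3 eosinophil, 2 of 3 T cell, 2 of 3 B cell and 0 of 4 epithelial markers, beside 56.5% of all coding genes. The T cell and B cell lists are thus not set apart from coding genes at large by this count.

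IL-4 binds its receptor on macrophages and activates the transcription factor STAT6, which dimerises and binds a palindrome of the form TTC, a short spacer, GAA. In macrophages STAT6 acts together with factors that set up the enhancers of this lineage, among them PU.1 and C/EBP proteins. Retnla encodes RELMα (FIZZ1) and Chil3 encodes Ym1, secreted proteins that are standard markers of alternative activation in mice, and Alox15 encodes the 12/15-lipoxygenase, which oxygenates polyunsaturated fatty acids. Retnlb encodes a resistin-like protein known from goblet cells of the gut, Retnlg encodes one known from neutrophils and bone marrow, and Chil4 encodes Ym2, a chitinase-like protein close to Ym1.

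The sequences below carry what the catalog shows at the resistin-like genes. The first set is the accessible element closest to Retnla, its copy upstream of Retnlg, of which all but the first 52 bases lie in a reference peak, and the corresponding sequence upstream of Retnlb, which is not in the catalog. All are given on the plus strand of mm10, read from assembly GRCm38.p6. Capitals mark the PU.1/ETS letters (GAGGAAGT or its reverse complement) and the C/EBP letters (TTGCNNAA, either strand), and in the Retnlb copy the bases aligned with them in its longest piece.
Retnla element, chr16:48833695-48833921: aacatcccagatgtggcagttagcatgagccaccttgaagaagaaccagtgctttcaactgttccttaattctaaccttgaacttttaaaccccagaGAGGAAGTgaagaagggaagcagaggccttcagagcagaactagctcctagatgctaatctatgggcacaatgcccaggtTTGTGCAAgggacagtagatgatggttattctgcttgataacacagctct
Retnlg copy, chr16:48865073-48865299: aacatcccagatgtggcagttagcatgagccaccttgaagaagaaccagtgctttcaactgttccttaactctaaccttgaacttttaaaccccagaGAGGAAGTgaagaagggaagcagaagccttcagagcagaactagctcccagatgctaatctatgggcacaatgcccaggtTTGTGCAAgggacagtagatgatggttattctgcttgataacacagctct
Retnlb copy, chr16:48812199-48812403: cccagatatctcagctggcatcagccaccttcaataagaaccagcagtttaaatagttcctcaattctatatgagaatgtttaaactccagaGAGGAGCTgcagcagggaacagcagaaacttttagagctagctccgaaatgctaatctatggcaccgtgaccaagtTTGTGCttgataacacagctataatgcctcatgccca

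The second set holds the elements with the STAT6 letters (TTCNNNNGAA, a palindrome that reads alike on both strands), which were the only such elements among the 28. It starts with the element 10336 bp before Retnla and the aligned sequence before Retnlg, which is not a reference peak, and ends with the element 9147 bp before Retnlg. Capitals mark the STAT6, PU.1/ETS and C/EBP letters, and in the copy the bases aligned with the STAT6 and PU.1/ETS letters.
Retnla element with STAT6 letters, chr16:48832119-48832306: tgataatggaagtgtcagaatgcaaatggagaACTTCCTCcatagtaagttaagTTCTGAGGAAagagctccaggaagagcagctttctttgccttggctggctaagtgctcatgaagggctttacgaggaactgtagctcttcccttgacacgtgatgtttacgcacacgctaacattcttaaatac
Retnlg copy without them, chr16:48864281-48864435: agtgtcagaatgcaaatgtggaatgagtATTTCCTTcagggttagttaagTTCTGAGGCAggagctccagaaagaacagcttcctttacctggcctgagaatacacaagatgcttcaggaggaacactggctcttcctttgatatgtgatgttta
Retnlg element with STAT6 letters, chr16:48863285-48863569: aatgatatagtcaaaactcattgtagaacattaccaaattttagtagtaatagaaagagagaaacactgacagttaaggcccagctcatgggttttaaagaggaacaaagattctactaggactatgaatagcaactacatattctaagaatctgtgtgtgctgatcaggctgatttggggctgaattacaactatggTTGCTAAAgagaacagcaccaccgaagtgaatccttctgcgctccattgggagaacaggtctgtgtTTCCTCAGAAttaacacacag

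None of the 6 members had a reference peak closer than 1000 bp to a start site, and 0 of them had a peak in the gene body as GENCODE annotates it. Of all coding genes 36.5% had no peak in the body, and of those without a start site peak 81.2%, so that this count is close to what such genes show in general. For Alox15 this depends on the annotation, since a predicted RefSeq transcript that starts farther upstream has 3 peaks in its body and a nearest peak at 5810 bp. Among all coding genes, 9536 of 21938, or 43.5%, lacked a peak at every start site. For Retnla, Chil3 and Alox15 this is the choice itself and no finding. The choice did not fix it for Retnlb, Retnlg and Chil4, of which 3 of 3 lacked one too, but these are neighbours or near copies of the chosen genes and no independent cases. No member lay inside the limit, and the closest outside it was Chil4, with a peak at 2115 bp.

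Measured from the most upstream start site, the edge of the nearest reference peak was at 2115 bp for Chil4, 7307 bp for Retnlg, 8630 bp for Retnla, 12371 bp for Retnlb, 17249 bp for Alox15 and 54058 bp for Chil3. These distances fell at percentiles 55.2, 63.3, 64.6, 67.7, 70.5 and 79.3 of all coding genes, whose median was 526 bp. Since genes with an accessible start site pull that median down, the closer comparison is with the 9536 genes that lack one, whose median distance was 44554 bp. Against that median 5 of the 6 members had a nearer peak, and Chil3 was the exception.

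**Figure D1:**
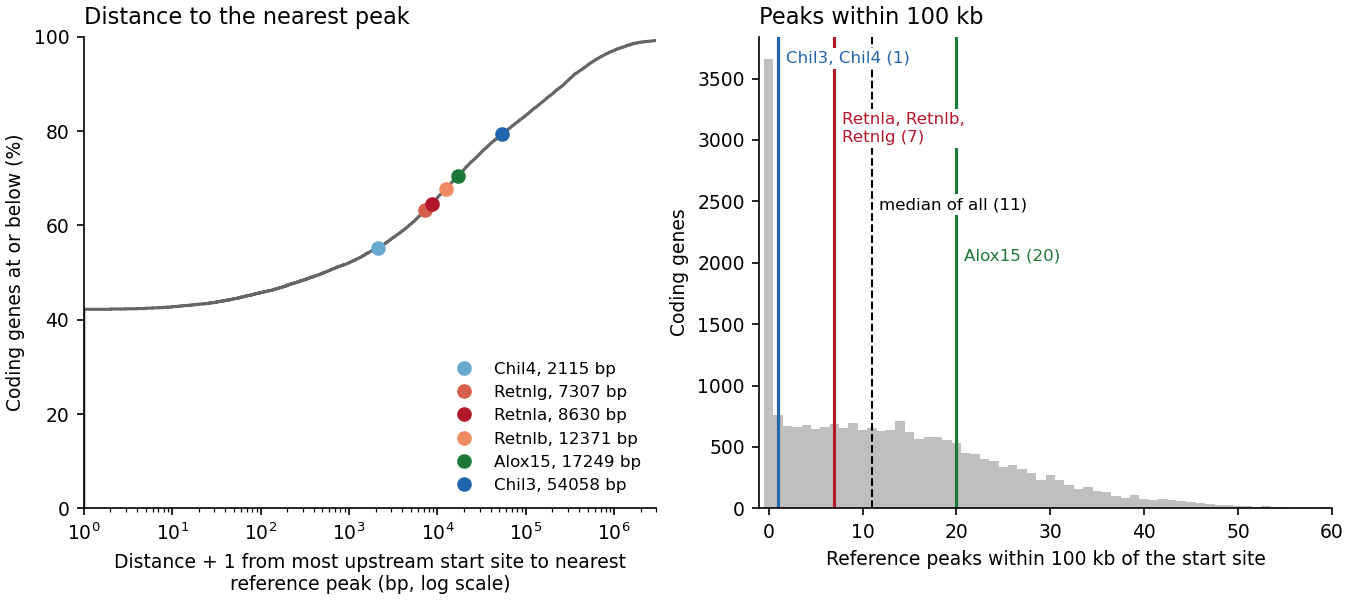
Left, cumulative share of 21938 coding genes (y axis, percent) by how far the nearest reference peak lies from their most upstream start site (x axis, bp plus 1, log scale), with the 6 members as coloured points. Right, histogram of the number of reference peaks within 100 kb of the start site, with coloured lines at 1 (Chil3, Chil4), 7 (the Retnl genes) and 20 (Alox15) and a dashed line at the median of 11. The members spread from 2115 to 54058 bp on the left and lie on both sides of the median on the right.

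The number of peaks within 100 kb separated the loci. It was 20 at Alox15 (percentile 75.1), 7 at each of the Retnl genes (percentile 38.4) and 1 at Chil3 and Chil4 (percentile 20.1). The median over all coding genes was 11, with quartiles of 3 and 20. Coding genes without a start site peak had a median of 3 and those with one a median of 17. Within 100 kb Alox15 thus sat among many peaks. The Retnl genes had more than the median of the genes lacking a start site peak, and the Chil pair had fewer. The order of Alox15 and the Retnl genes did not hold in smaller windows. With 20 kb Alox15 had 1 peak, Retnla 4, Retnlb 4 and Retnlg 2. With 50 kb Alox15 had 6, Retnla 6, Retnlb 7 and Retnlg 6. At the 100 kb limit, the farthest peak counted for Alox15 began at 99855 bp and the first one left out at 101187 bp, so that its count depends on the exact window. For the other members the first peak left out lay at 120241 bp or farther.

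**Figure D2:**
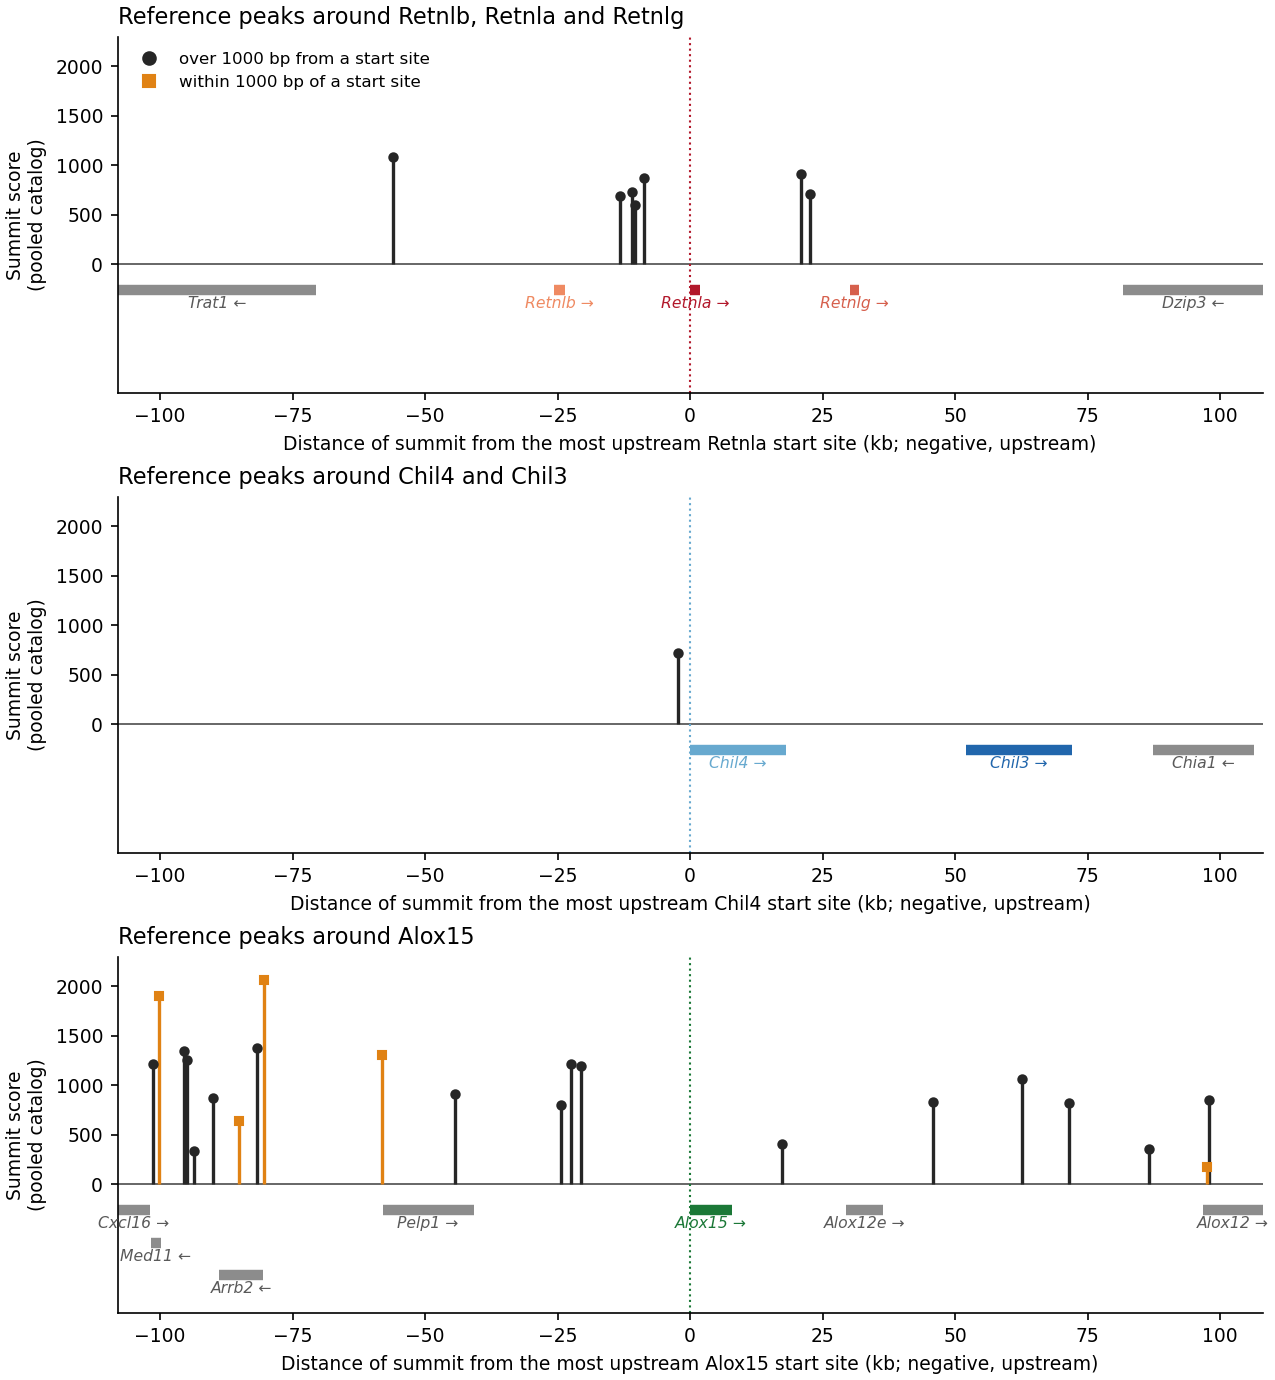
Reference peaks around Retnla (top), Chil4 (middle) and Alox15 (bottom). The x axis is the distance of the summit from the most upstream start site of the named gene in kb, in the direction of its transcription, and the y axis is the summit score in the pooled catalog; bars below show coding genes, with arrows pointing right for the same strand as the named gene. Black circles are peaks over 1000 bp from any start site and orange squares those within it. No peak falls on a member's start site or body, 7 peaks stand around the Retnl genes, 1 before Chil4, and those around Alox15 include start site peaks of its neighbours.

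Around Retnla (ENSMUSG00000061100.4, chr16:48842551-48844461, plus strand), 5 peaks lay upstream and 2 downstream. All 7 were intergenic, and 0 were start site peaks of another gene. In genome order their summit scores were 1082, 685, 727, 603, 867, 911 and 706, with a median of 727 beside a median of 737 over the 84660 summits of the catalog. All 7 lay in the middle of the range, at percentiles from 38.2 to 72.0 of all summits. The highest score near Retnla, 1082, was at percentile 8.91 of the highest scores within 100 kb of coding genes, for which the median was 1838 (quartiles 1556 and 2061, 18277 genes with a summit). Of all coding genes 56.5% had a start site peak, and Retnla was chosen for lacking one. No rank among genes without a start site peak was derived, so this low rank cannot be told apart from the choice.

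The 4 peaks nearest to Retnla on its upstream side form a group. Their summits stood at -13280, -10987, -10336 and -8741 bp from the start site, in the interval between Retnlb and Retnla. The last 3 had been joined by the authors into a single extended region of 4002 bp. On the other side of Retnla the next summit was 20923 bp away. The peak-free interval that holds the gene measured 29363 bp. Since Retnla was chosen for a start site without a peak, this length was set only beside that of coding genes lacking one too. Among the 9407 of these that lie between 2 peaks the median was 234288 bp, and Retnla was at percentile 15.5. The remaining peak of the locus, with the highest score, stood at -56088 bp by summit, beyond Retnlb and 14442 bp from the start of Trat1, a gene for a T cell receptor-associated adaptor.

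Retnlb (ENSMUSG00000022650.7, chr16:48816856-48818892) and Retnlg (ENSMUSG00000022651.6, chr16:48872621-48874496) flank Retnla on the same strand. Retnlb had 1 peak upstream, with a summit at -30393 bp, and 6 downstream, the nearest at 12415 bp. Retnlg had all 7 upstream, the nearest summits 7422 and 9147 bp before its start. The peak-free interval around Retnlg ran for 127547 bp up to a start site peak of Dzip3, an E3 ubiquitin ligase gene, and that around Retnlb for 42652 bp, at percentiles 42 and 22 of the same genes. Accessible elements thus stood at similar distances before Retnla and Retnlg, whereas the nearest one before Retnlb was farther away.

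The nearest element of Retnla and the nearest element of Retnlg are copies of each other. Over the 227 bases of the Retnla element, 224 were identical at Retnlg (98.7%). The called Retnlg element is 190 bases long and shifted along the copy, with 175 bases of the copy inside it, and over these 190 bases 185 were identical at Retnla (97.4%). The scores of the peaks were 867 and 706. Both hold 1 PU.1/ETS and 1 C/EBP match, at the same places in the printed sequences. The Retnlb copy, whose middle lies at -4555 bp from that gene's start, aligned over 180 bases with 75% identity in its longest piece and is not a reference peak. In it, 6 of 8 bases of the PU.1/ETS letters were kept. Of the C/EBP letters 6 of 8 bases were aligned, all identical, and the alignment ends there. A second piece of 34 bases, 94.1% identical to the Retnlg element farther along, adjoins it, and the Retnlb copy holds neither motif. The nearest reference peak to this copy was 16824 bp away.

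Reads of full length from the pair could nearly always be placed, shorter ones less often. Of the stretches of 76 bases, the read length, that start in the Retnla element, 96.0% occur once in the genome, as do 95.3% of those in the Retnlg element. At 38 bases, the shortest length that trimming left, the shares were 59.0% and 64.7%. All 76 stretches of 76 bases over either summit were found once, and of the stretches of 38 bases 32 of 38 at the Retnla summit and 38 of 38 at the Retnlg summit. The other 5 peaks of the locus had 100% at both lengths.

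The copies of the other Retnla elements differed from this. The element 10987 bp before Retnla has a copy before Retnlg with 78.2% identity over 188 aligned bases, which is no reference peak but begins 49 bp from the accessible element 9147 bp before Retnlg. The element 10336 bp before Retnla, which carries the STAT6 letters, has a copy with 75.5% identity over 159 aligned bases, 690 bp from the nearest reference peak. In that copy 9 of 10 bases of the STAT6 letters and 6 of 8 of the PU.1/ETS letters were kept, and neither motif matches. The element 9147 bp before Retnlg holds STAT6 letters of its own, and for it no copy was found at Retnla or Retnlb. Retnla and Retnlg each thus have 1 accessible element with the STAT6 letters at about the same distance, on sequences that did not align with each other.

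**Figure D3:**
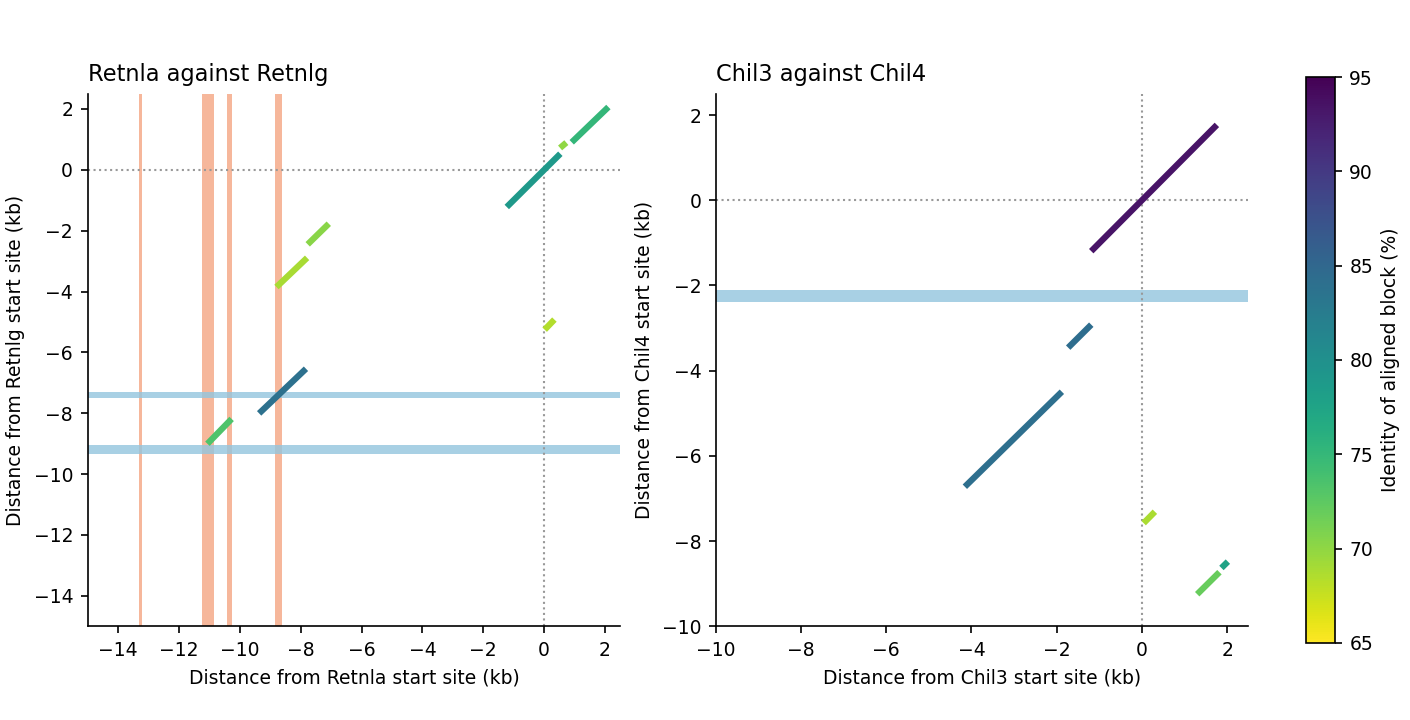
Aligned blocks between Retnla and Retnlg (left) and between Chil3 and Chil4 (right), each axis giving the distance from the start site of one gene in kb and the colour of a block its identity in percent. Vertical bands are reference peaks of the gene on the x axis and horizontal bands those of the gene on the y axis. The Retnla element at 8741 bp and the Retnlg element at 7422 bp cross on a block of 83.9% identity, and the Chil4 peak falls in a gap between blocks.

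Of the 20 kb before Retnla, 21.5% aligned with the same stretch at Retnlg, in blocks with a mean identity of 75.9% when those past the start site are counted in. The block around the start sites reached from -1229 to 531 bp around that of Retnla, at 78.9% identity. The block that holds the accessible pair had 83.9% over 1561 aligned bases. The 98.7% and 97.4% over the called elements are thus higher than in their own block, though the elements were the items singled out and the difference was not tested. Most of the Retnla element also lies in a further block, from -8797 to -7790 bp at Retnla and from -3852 to -2893 bp at Retnlg. This block had 68.9% identity over 1023 aligned bases, and no reference peak lies in its Retnlg part. With Retnlb, 9.65% of the 20 kb before Retnla aligned.

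Motif letters were sought up to 100 bp to each side of a peak's best summit, and a match says only that the letters are there. The STAT6 letters were found at 2 of 28 summits, beside 6.87% of all 82391 reference peaks, and both of the 2 belonged to the 7 Retnl peaks. The PU.1/ETS letters were found at 5 of 28 (9.22% of all peaks), 3 of them at the Retnl genes and 2 at Alox15. The C/EBP letters were found at 4 of 28 (11.4% of all), 3 of them at the Retnl genes. The AP-1 letters (TGACTCA) were found at 3 of 28 (16.2% of all), the RUNX letters (TGTGGTT) at 0 (8.01% of all) and the IRF motif at 0 (3.66% of all).

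Matches for at least 2 of the 6 motifs were found at 4 of 28 peaks, beside 9.75% of all reference peaks, and no test was made. Each of the 4 peaks at 10336 and 8741 bp before Retnla and at 9147 and 7422 bp before Retnlg had such matches, STAT6 with PU.1/ETS in the first, STAT6 with C/EBP in the third, and PU.1/ETS with C/EBP in the copied pair. Of the other 3 Retnl peaks, the one at -13280 bp had the AP-1 letters. The other 2 had none of the 6 motifs within 100 bp of the summit, though the one at -10987 bp holds 1 IRF match farther out in the peak. Because the copied pair is 1 sequence present in tandem, its matches count as 1 origin. The STAT6 letters of the element before Retnlg lie near the edge of its peak and are within 100 bp of the summit but not within 50 bp.

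Promoters of Retnla and Retnlg were read from RefSeq (GRCm38.p6) from 250 bases before the RefSeq start site to 20 after it, since both carry the STAT6 letters in sequence that the catalog leaves out. Capitals mark the STAT6 letters and, where present the C/EBP letters and the TATAAA of a TATA box.
Retnla promoter, chr16:48842359-48842628, plus strand: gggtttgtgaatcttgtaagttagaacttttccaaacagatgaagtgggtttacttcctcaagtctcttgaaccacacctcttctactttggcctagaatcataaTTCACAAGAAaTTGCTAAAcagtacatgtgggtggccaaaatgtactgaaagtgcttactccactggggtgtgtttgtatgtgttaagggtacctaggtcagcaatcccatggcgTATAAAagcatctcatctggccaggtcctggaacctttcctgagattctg
Retnlg promoter, chr16:48872358-48872627, plus strand: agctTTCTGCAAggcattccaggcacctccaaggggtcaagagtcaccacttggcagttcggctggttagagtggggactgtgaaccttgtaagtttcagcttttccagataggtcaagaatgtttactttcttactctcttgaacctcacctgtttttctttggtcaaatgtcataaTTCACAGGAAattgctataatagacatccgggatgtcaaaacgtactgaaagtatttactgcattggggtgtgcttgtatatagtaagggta

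At Retnla the STAT6 letters start at -145 from the RefSeq start site and are followed after 1 base by C/EBP letters, and TATAAA starts at -30. At Retnlg the STAT6 letters start at -72, where the annotated start is placed farther upstream along the aligned sequence. TATAAA is absent from the Retnlg window. The bases printed for Retnlg end before the place that corresponds to the Retnla TATAAA, so they do not show whether it was kept. Among 32851 RefSeq promoters of 300 bases, 6.95% hold the STAT6 letters, 10.8% the C/EBP letters and 13.6% TATAAA at any place, and 2.32% hold TATAAA beginning between 50 and 21 bases before the start. The Retnla window also holds the PU.1/ETS letters (3.20% of promoters) and the RUNX letters (5.27%), which are not in capitals. The 2 promoters were 79.1% identical over 225 aligned bases. By the same alignment, pairs of a Retnla or Retnlg promoter with a Chil3 or Chil4 promoter were 62.2% to 65.1% identical. The RefSeq start of Retnla lies 58 bp inside the GENCODE start used for the distances.

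Chil3 (ENSMUSG00000040809.10, chr3:106147554-106167564) and Chil4 (ENSMUSG00000063779.6, chr3:106201490-106219507), both on the minus strand, shared the single peak of their locus. It stood 2269 bp before the Chil4 start by its summit and 54212 bp before that of Chil3, so that Chil4 and its body lie between the peak and Chil3. Its score was 716, close to the median summit of 737 and at percentile 48.6. As the highest score of a 100 kb window, however, 716 was at percentile 3.98 of the 18277 coding genes with a summit there, while a further 16.7% of all coding genes had no peak within 100 kb. Here too no rank among genes without a start site peak was derived, and Chil3 was chosen for lacking one. The peak is printed here on the minus strand, in the direction of Chil4 transcription, with no capitals because it holds none of the 6 motifs.
Chil4 element, chr3:106221622-106221906: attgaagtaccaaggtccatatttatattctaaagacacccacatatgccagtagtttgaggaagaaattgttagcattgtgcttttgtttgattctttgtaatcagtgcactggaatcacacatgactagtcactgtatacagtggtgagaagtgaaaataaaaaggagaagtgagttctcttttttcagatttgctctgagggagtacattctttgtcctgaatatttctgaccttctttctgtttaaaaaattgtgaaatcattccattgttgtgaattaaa

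Downstream of this peak no reference peak followed for 247108 bp, an interval that holds both genes and Chia1, which encodes the acidic chitinase. By its length Chil3 and Chil4 were in the middle of the coding genes without a start site peak, at percentile 50.8. The far end of the interval is a start site peak of Ovgp1, the oviductal glycoprotein gene of the chitinase family. On the other side of the Chil4 element the next peak was 229140 bp from the Chil4 start. By this length Chil3 and Chil4 had the emptiest surroundings of the 6 genes.

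The Chil4 element lies in sequence that Chil3 does not have. The start site regions of both genes aligned as a block of 2974 bases with 93.4% identity, which reached up to -1196 bp from the Chil4 start. A further block of 84.4% identity resumed at -2921 bp. At Chil3 these blocks adjoin, overlapping by 2 bases, whereas at Chil4 they are 1724 bases apart (chr3:106220704-106222427), and the peak stands within this interval, from -2399 to -2115 bp. Lower case letters of the genome sequence, which mark repeats, made up 28.3% of the interval and 22.4% of the 201 bases centred on the summit. The element had 2 matches elsewhere in the genome. One was at chr3:106338301-106338580, where the nearest coding start, 67742 bp away, is that of Chil6. It had 80.6% identity over 289 aligned bases and stood 110067 bp from the nearest reference peak. The other, on another chromosome, had 78.4% identity over 282 aligned bases and stood 452345 bp from the nearest one.

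The promoters of Chil3 and Chil4 resembled each other more than those of Retnla and Retnlg. In the RefSeq windows 251 of 271 aligned bases were identical (92.6%). Neither holds the STAT6 letters. TATAAA starts at -31 from the RefSeq start at Chil4 and at -3 at Chil3, where the annotated start is placed farther upstream along the same sequence. The C/EBP letters are in the Chil4 window and not in that of Chil3.

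Alox15 (ENSMUSG00000018924.6, chr11:70344152-70352031, minus strand) had 13 peaks upstream and 7 downstream of its most upstream start site. Their scores ran from 175 to 2061 with a median of 889. The highest, 2061, was the start site peak of Arrb2, which encodes β-arrestin 2, with a summit at -80402 bp from Alox15, and 1903 was that of Med11, a Mediator subunit gene. Of its 5 coding neighbours, 4 had a start site peak, among them Pelp1 and the platelet-type lipoxygenase gene Alox12. Without summits near any start site the highest score was 1381, in an intron of Arrb2. Of the 20 peaks, 8 lay at a start site or in the body of another coding gene and 12 were intergenic, whereas all 8 peaks of the Retnl and Chil loci were intergenic.

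**Figure D4:**
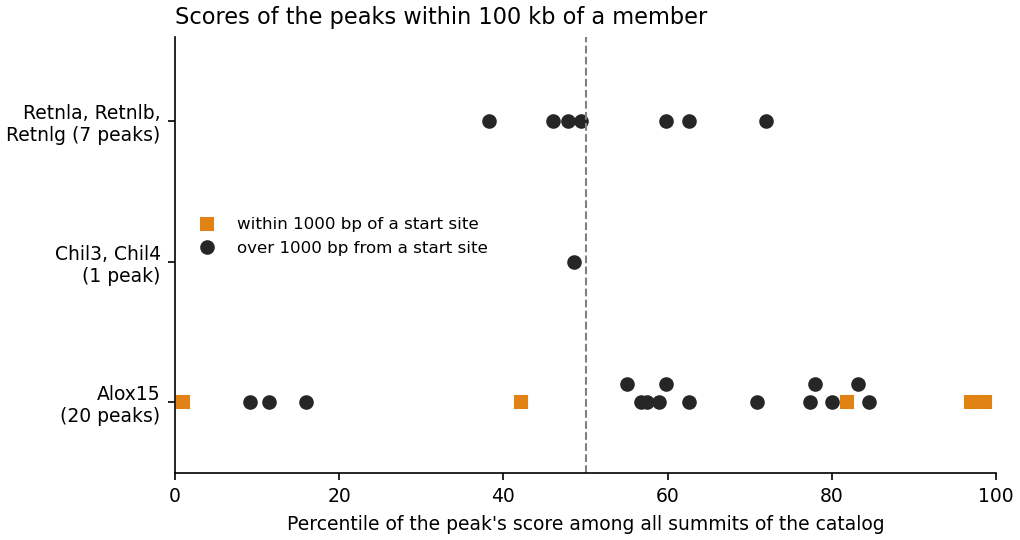
Percentile of the score of each of the 28 peaks among all summits of the catalog (x axis), by locus (rows; points of similar percentile are raised to keep them apart). Orange squares are peaks within 1000 bp of a start site, black circles the others, and the dashed line is the median of all summits. The 7 Retnl peaks lie between 38.2 and 72.0 and the Chil peak at 48.6, whereas the Alox15 peaks span 0.934 to 98.7.

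The peaks nearest to Alox15 were weak on one side and stronger on the other. Downstream, past the end of the gene, the nearest had a score of 402 (percentile 15.9) and a summit 17371 bp from the most upstream start. Upstream, 3 peaks followed each other at 20583, 22477 and 24337 bp by summit, with scores of 1200, 1212 and 802. They were intergenic in GENCODE, and the closest annotated start to any of them was that of the pseudogene Gm12312, at 14476 bp. The second of them holds the PU.1/ETS letters near its summit and is printed on the minus strand, with these letters in capitals.
Alox15 upstream element, chr11:70374351-70374636: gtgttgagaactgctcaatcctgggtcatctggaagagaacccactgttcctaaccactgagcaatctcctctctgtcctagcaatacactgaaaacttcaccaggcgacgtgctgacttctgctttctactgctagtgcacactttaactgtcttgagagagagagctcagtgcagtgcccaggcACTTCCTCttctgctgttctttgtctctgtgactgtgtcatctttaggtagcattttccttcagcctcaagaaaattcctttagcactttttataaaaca

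The STAT6 letters were found near 0 of 20 summits at Alox15 (6.87% of all peaks), also when 200 bp to each side were searched (11.9% of all peaks). PU.1/ETS letters were found at 2, AP-1 letters at 2 and C/EBP letters at 1. The peak-free interval that holds Alox15 was 37686 bp (percentile 19.8 of coding genes without a start site peak). Its second GENCODE start site is nearer to the downstream peak, which brings the distance to 10914 bp.

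The sequence around the start sites was compared with respect to CpG content and to whether reads can be placed. The CpG ratio, observed over expected CpG from 250 bp before to 50 bp after the start, was 0.078 for Retnlb, 0.138 for Retnla, 0.198 for Chil4, 0.268 for Chil3, 0.290 for Retnlg and 0.440 for Alox15, beside a median of 0.525 over coding genes. All 6 were below the median, at percentiles from 9.25 to 44.4. Of all coding genes 56.5% had a start site peak, which all 6 members lack. No ratio was derived for the genes without such a peak, so these ranks cannot be told apart from the choice of the members. The 5 genes of the Retnl and Chil families were at percentile 32.7 or lower, and Alox15 was near the middle of all genes. These ratios depend on the window. With 1000 bp to each side all 6 were again below the median, then 0.475, but 5 of the 6 moved by over 1.5 times and the order changed. Chil3 was then lowest, at 0.061 (percentile 1.9), Retnlb was at 0.179 (percentile 20.6) and Alox15 at 0.426 (percentile 45.6).

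Most of the sequence within 1000 bp of the members' start sites occurs once in the genome. At 76 bases the share of stretches found once was 98.9% for Retnla, 70.3% for Retnlb, 100% for Retnlg, 95.8% for Chil4 and 99.4% for Alox15, and for Chil3 5704 of 6003 stretches. The median over coding genes was 100% and the lowest 5% of genes were at or below 55.7%. At 38 bases the shares ran from 64.6% at Retnlb to 98.7% at Retnlg. At their full length, reads could thus be placed nearly throughout around the starts of 5 members, and over most bases at Retnlb.

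For comparison with genes of related function, 17 of 19 genes of a list of IL-4 response genes had a start site peak, among them Mrc1, Ccl24, Pparg and Socs1, and the list had a median of 27 peaks within 100 kb (11 to 47). Ccl17 and Cdh1 lacked one, with the nearest peak 1385 and 4199 bp from a start site. Retnla, Chil3 and Alox15 were not in that list. Of its genes, Mrc1 is also among the macrophage markers and Cdh1 among the epithelial markers counted above. In the chitinase family 3 of 6 other genes lacked a start site peak, namely Chia1, Chil5 and Chil6, all in the cluster of Chil3 on chromosome 3. Ovgp1, in the same part of chromosome 3, had a start site peak, as had Chil1 and Chit1. In the lipoxygenase family 3 of 7 other genes lacked one, namely Alox8, Alox12b and Alox12e, beside 43.5% of all coding genes.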

How the data were processed

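Per the study's methods, the authors made ATAC-seq libraries from BMDMs (18 libraries, 9 groups of 2, single-end reads of 76 bases), removed adapters (BBDuk), trimmed reads (Trimmomatic), aligned them to mm10 with ShortStack and filtered them with SAMtools. Peaks were called with MACS2 without a local background and with duplicates kept, and peaks below a stringent q-value that overlapped between replicates were retained. The submitters' processing notes give Trimmomatic 0.39, SAMtools 1.9 and MACS2 2.2.6. No shift towards the Tn5 cut site is stated, so that a summit may lie beside the most accessible base.

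The deposited lists give positions of peaks, extended regions and summits, and a score per summit, as the authors' pooled values. No source used here gives the scale of this score. 0 columns belonged to other samples. Without values per library, depth, replicate error and the comparison of stimuli and times could not be derived.

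Genes came from GENCODE M21 and sequence from GRCm38.p6, whose primary chromosomes have mm10 coordinates. A peak was counted with any base in the window of 1000 bp or 100 kb, and percentiles are shares of coding genes at or below a value. Motif letters were sought on both strands. Repeated stretches were counted with numpy 2.4.6 and numba 0.67.0 and copies aligned with BLAST 2.17.0 (e-value up to 1e-05, and between paralogs up to 1e-10 with at least 100 aligned bases). The stretch counts, distances and motif search were checked on simulated data. Promoters of 4 of the 6 members were in the RefSeq table used. The text names the members, their nearest peaks on each side, the peak with the highest score, peaks with STAT6 letters and list genes without a start site peak. Other peaks and genes were chosen after their values were seen. 1 further gene of the IL-4 list is not reported here, for a reason unrelated to its values. The members, gene lists and motifs were chosen with earlier results of these data known.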

Additional observations from a re-analysis of the deposited data

How the results depend on the processing

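The number of members without a start site peak was 6 at 500 bp, with start sites of protein-coding transcripts, with peaks at or above the median score, with summits and with RefSeq start sites, and 5 at 2500 and 5000 bp, where Chil4 had one. With peaks at or above the median score of 737, the nearest peak was 208000 bp from Chil3 and 259943 bp from Chil4, since their only peak, at 716, fell just below it, and the number within 100 kb was 3 for Retnla, 3 for Retnlb, 3 for Retnlg, 0 for Chil3 and 0 for Chil4. For Alox15 the distance was 10914 bp as the smallest over all start sites and 5810 bp with RefSeq start sites, an alternative chosen after seeing the data. With 20 kb the number of peaks was 4 for Retnla, 4 for Retnlb, 2 for Retnlg, 0 for Chil3 and 1 for Alox15. With 50 kb it was 0 for Chil3 and 6 for Alox15, whose highest score was then 1212. Within 50 bp of the summit, STAT6 letters were found at 1 peak in place of 2 (3.78% of all peaks). With 1000 bp to each side the CpG ratio was 0.069 for Retnla, 0.179 for Retnlb, 0.094 for Retnlg, 0.061 for Chil3 and 0.097 for Chil4. The other 70 of 93 alternative values stayed within 1.5 times the value reported. Within 50 kb Chil3 had no summit and thus no highest score.

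No paired analysis was possible because the lists hold no column per library, and for the same reason no library was left out. Absence from the catalog is not a measurement of closed chromatin, since peaks had to pass a threshold and overlap between replicates. The depth behind the calls is unknown.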

Other observations

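The summit names carry a number of the authors' merged call, which did not fall with position at any of 84639 pairs of neighbouring summits. It was higher in the second summit of 69697 pairs and the same in 14942. The largest number is 217313, and 69718 numbers (32.1%) are kept in the catalog, and 147595 numbers are absent from it. Between the peaks that flank each start site, 1 number was skipped at Retnla, 5 at Retnlb, 8 at Retnlg, 14 at Chil3 and Chil4 together and 5 at Alox15. What these numbers stood for, and their positions and heights, are not given in the sources used here.

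The peak at the start of Alox12 with a score of 175, the lowest of the 28, has 130 aligned bases in the body of Alox15 (73.1% identity, middle 1259 bp after the Alox15 start) and 118 aligned bases at Alox12e (72.9% identity). Neither copy is a reference peak. All 3 hold the C/EBP letters, in sequence shared by the paralogous lipoxygenase genes.

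RefSeq has a predicted Alox15 transcript that starts 38507 bp before the GENCODE start. By that model 3 reference peaks, those at 20583, 22477 and 24337 bp, would be inside the gene, 29 peaks would be within 100 kb of its start, and the nearest would be 5810 bp away. For the other 5 members the RefSeq start lay within 58 bp of the GENCODE start.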
